A study of Mus musculus with 4 samples.

Results

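Tubulins are the building blocks of microtubules, and 10 tubulin genes of mouse embryonic stem cells are described here. They are the alpha tubulins Tuba1a, Tuba1b and Tuba1c, the beta tubulins Tubb2a, Tubb2b, Tubb3, Tubb4b, Tubb5 and Tubb6, and the gamma tubulin Tubg1. The genes were taken by name, with the Ensembl identifiers of the count files matched without their version to GENCODE M21 symbols. No measured value entered that rule, but the list was chosen with earlier results of these data known. All 10 were found among the 37311 gene identifiers of the files, and all 10 were among the 13809 genes that passed the filter on low counts and were tested.

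The libraries came from J1 cells, an embryonic stem cell line of the 129S4/SvJae strain kept without feeders on gelatin in serum and leukaemia inhibitory factor. Every library was made from cells with a knockdown of eIF4A3, a helicase that forms the core of the exon junction complex, by the short hairpins sheIF4a3-2 and sheIF4a3-3, so both groups below share the knockdown. Selection with puromycin at 1 μg/mL lasted 3 days, and the harvest on day 4.5 followed 1 min of cycloheximide, an inhibitor of elongation, at 0.1 mg/mL. The 2 groups are ribosome protected fragments (RPF, the stretches of mRNA that ribosomes shield from nuclease; 2 libraries, each sequenced 4 times) and total RNA depleted of ribosomal RNA (2 libraries). The replicates are labelled as biological. Which hairpin each one received, and whether an RPF and a total RNA library with the same number share a lysate, is not given in the sources used here. No library of unmodified cells was analysed here, so the comparison below sets footprints against RNA within knockdown cells and measures no effect of the knockdown.

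Gene counts summed to 9434987 and 7615277 in the RPF libraries and to 8969965 and 8218020 in the total RNA libraries. Levels are given as CPM, each gene's count over the library total on a fixed scale, with that total adjusted by TMM, a factor that sets the bulk of genes equal between libraries. A count of 3, taken as the floor, corresponded to 0.388 and 0.437 CPM in RPF and to 0.294 and 0.310 CPM in total RNA, for counting error only. The stem cell marker Pou5f1 had 985 and 793 CPM in RPF, against 992 and 794 CPM in total RNA. The 9 fibroblast markers on the list, which feeder cells would carry, summed to 19.0 and 15.3 CPM in RPF, against 10.97 and 10.7 CPM in total RNA. Among them Col1a1 had 39 and 25 counts in RPF, against 17 and 21 in total RNA. Col1a2 had 14 and 20 counts in RPF, against 7 and 4 in total RNA, and Col3a1 had 3 and 0, against 1 and 0. Eif4a3 itself had 212 and 193 CPM in RPF, against 120 and 101 CPM in total RNA, values that cannot check the knockdown without libraries of untreated cells.

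Alpha and beta tubulin pair as a dimer that polymerises into microtubules, while gamma tubulin sits in a ring complex at centrosomes and other sites and templates new microtubules. Each cell type mixes several alpha and beta isotypes, encoded by separate genes whose proteins differ mostly at their carboxy-terminal tails. Nascent tubulins are passed by prefoldin to the CCT chaperonin, and dedicated cofactors then assemble the dimer. Tubulin synthesis is autoregulated: when free dimers are in excess, the factor TTC5 recognises the first residues of alpha or beta tubulin as they leave the ribosome, and the CCR4-NOT deadenylase then removes the mRNA being translated. In stem cells, which divide rapidly, microtubules form the mitotic spindle in each cycle, and Tubb3 is widely used as a marker of neurons.

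In alpha and beta genes, the stretch that the autoregulation reads is encoded by the first 4 codons, shown in capitals for the alpha genes and the 2 most footprinted beta genes. Tubg1, which is not among the tubulins TTC5 is known to read, is shown beside them with its own first 4 codons in capitals (GENCODE M21 transcripts, GRCm38, sense strand, coding bases 1 to 36). The 12 capital bases were the same in Tuba1a, Tuba1b and Tuba1c, and these genes, on chromosome 15, also share most of the rest of their coding sequence.
Tuba1a: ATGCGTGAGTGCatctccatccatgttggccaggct
Tuba1b: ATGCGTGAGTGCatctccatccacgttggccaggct
Tuba1c: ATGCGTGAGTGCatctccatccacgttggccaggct
Tubb4b: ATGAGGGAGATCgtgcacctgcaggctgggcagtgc
Tubb5: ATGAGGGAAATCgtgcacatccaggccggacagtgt
Tubg1: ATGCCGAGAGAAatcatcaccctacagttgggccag

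The beta genes differ more from each other. Coding bases 601 to 660 of the most abundant pair are shown, with capitals at bases of Tubb4b that differ from Tubb5. Tubb4b differed from Tubb5 at 14 bases of this window.
Tubb5: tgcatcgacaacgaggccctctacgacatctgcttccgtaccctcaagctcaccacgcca
Tubb4b: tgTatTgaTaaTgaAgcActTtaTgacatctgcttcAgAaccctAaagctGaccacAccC

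Over the whole coding sequence, Tuba1a and Tuba1b were 98.3% identical, with 23 differences in 1356 aligned bases. Tuba1b and Tuba1c were 97.9% identical, with 28 differences. Among the beta genes, Tubb2a and Tubb2b on chromosome 13 stood closest, at 96.5% with 47 differences, whereas Tubb4b on chromosome 2 and Tubb5 on chromosome 17 were 82.2% identical. Tubg1 on chromosome 11 was 48.7% to 51.9% identical to the alpha and beta genes.

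The counts came from reads aligned to 1 place, since the files tally non-unique alignments apart from the genes, at 21.05% and 20.6% of the tallied alignments in RPF and 16.6% and 16.5% in total RNA. A read from a stretch that occurs at several places is therefore missing from the gene counts. Of the 28-base stretches of coding sequence, a length chosen to stand for a footprint, 94.1% in Tuba1a, 97.6% in Tuba1b and 95.2% in Tuba1c also occurred elsewhere among the annotated transcripts. These alpha stretches were shared with each other and with 24 pseudogenes for each gene. The shared portion was 80.3% in Tubb4b, mostly with its pseudogenes Tubb4b-ps1 and Tubb4b-ps2, and 77.3% and 69.9% in Tubb2b and Tubb2a, mostly with each other. It was 35.0% in Tubg1, mostly with Tubg2. Tubb3, Tubb5 and Tubb6 had the most distinct coding sequences, with 6.56%, 6.04% and 7.67% shared, against a median of 0.238% over 12520 coding genes. With stretches of 50 bases, the read length, the shared portion stayed at 86.2% in Tuba1a, 94.6% in Tuba1b and 90.6% in Tuba1c.

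**Figure D1:**
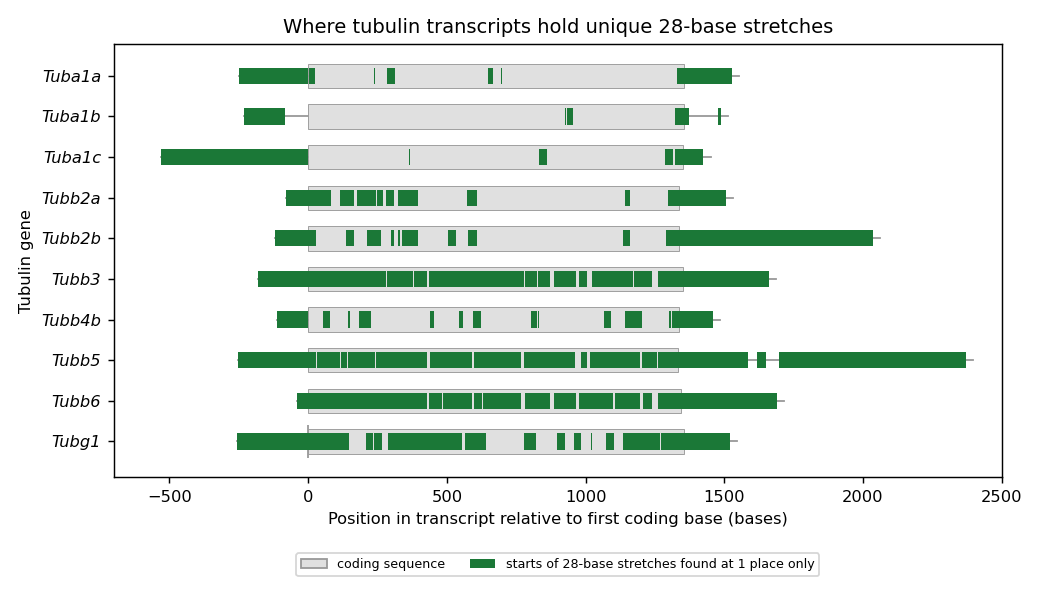
Map of the 10 tubulin transcripts by position from the first coding base, in bases, with the coding sequence as a grey box and the starts of 28-base stretches that occur at 1 place in green. Tubb3, Tubb5 and Tubb6 are green nearly throughout, whereas Tuba1b keeps 32 unique starts in its coding sequence and Tuba1c keeps 63.

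Annotated neighbours overlap some members as well. In GENCODE M21, Gm49450, on the same strand, covers 26.2% of the exon bases of Tuba1a. Gm49450 and the opposite-strand Gm41396 together cover 27.4% of those of Tuba1b, and Fam166a, on the opposite strand, covers 5.80% of those of Tubb4b. Where Gm49450 overlaps, strand cannot separate its reads from those of Tuba1a and Tuba1b. The strand setting of the counting is not given in the sources used here, so reads of Tuba1b and Tubb4b and of their opposite-strand neighbours cannot be told apart either.

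Tubb5 and Tubb4b, broadly expressed beta tubulins, dominated the tubulin counts in all 4 libraries. Tubb5 had 2859 and 1870 CPM in RPF, against 1201 and 805 CPM in total RNA. Tubb4b had 1758 and 1552 CPM in RPF, against 744 and 645 CPM in total RNA. Both genes were therefore far above the other 8 members, of which the highest, Tuba1b and Tuba1c, stayed at or below 318 CPM in every library. At the low end, Tuba1a and Tubb2a stayed at or below 34.3 CPM, and the smallest count of any member in any library was 115, for Tuba1a in RPF replicate 2.

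**Figure D2:**
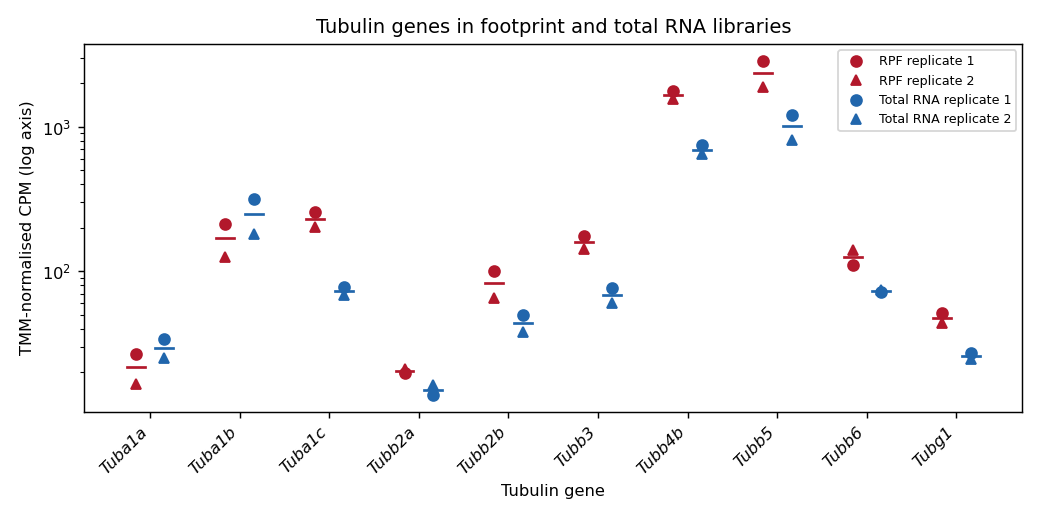
Level of each tubulin gene in TMM-normalised CPM on a log axis, with RPF libraries in red left of total RNA libraries in blue, circles for replicate 1, triangles for replicate 2 and a bar at the mean of the 2 libraries. Tubb5 reaches 2859 CPM in RPF and 1201 CPM in total RNA, and both RPF symbols lie above both total RNA symbols for every gene except Tuba1a and Tuba1b.

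Levels of different genes can be set beside each other only per length, so RPF values were divided by the coding length and total RNA values by the transcript length, in kb. In RPF, Tubb5 came first at 2142 and 1401 CPM per kb and Tubb4b followed at 1314 and 1160 CPM per kb. In total RNA, Tubb4b led at 466 and 404 CPM per kb over Tubb5 at 454 and 304 CPM per kb, and the ranges of these genes overlapped. After them in RPF came Tuba1c, Tuba1b, Tubb3, Tubb6, Tubb2b, Tubg1, Tuba1a and Tubb2a, in order of the mean. In that order, the ranges of Tuba1c and Tuba1b, of Tuba1b and Tubb3, of Tuba1b and Tubb6, and of Tuba1a and Tubb2a overlapped. In total RNA the order after Tubb5 was Tuba1b, Tubb6, Tuba1c, Tubb3, Tubb2b, Tuba1a, Tubg1 and Tubb2a. There, Tuba1c and Tubb3 overlapped, as did Tubb6 with Tubb3, Tubb2b with Tuba1a and Tuba1a with Tubg1.

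These levels per kb depend on how much of each gene can hold a counted read. Divided instead by the number of unique 28-base starts, Tubb4b came first in every library, at 6813 and 6016 CPM per kb in RPF and 1439 and 1247 CPM per kb in total RNA. On that scale Tuba1b came next, at 6606 and 3937 CPM per kb in RPF and 1389 and 786 CPM per kb in total RNA. Tubb5, whose sequence is largely unique, stood at 2326 and 1522 CPM per kb in RPF and 487 and 327 CPM per kb in total RNA. The place of the alpha genes among the tubulins thus moved with the choice of length.

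The comparison of RPF with total RNA asks how many footprints a gene gave for its RNA. Footprints come from coding sequence and total RNA from the whole transcript, so the ratio also depends on the coding share. That share ran from 50.4% in Tubb5 to 83.7% in Tubb4b, against a median of 55.2% over 12520 coding genes. The RPF to total RNA ratio, on the log2 scale, was taken from edgeR's quasi-likelihood fit over all 13809 genes, with Benjamini-Hochberg adjusted p under 0.05 as the threshold. Of the 10 tubulins, 7 were higher in RPF, 0 were lower and 3 did not pass, where 20.5% of all genes tested were higher and 21.2% were lower. At an unadjusted p under 0.05 the count of lower tubulins was also 0, as it was with DESeq2 and with limma-voom. With library size as the only scaling, 4 of the 10 were higher and 2, Tuba1a and Tuba1b, were lower. That scaling made 1223 of all genes tested higher and 4961 lower. The count of 0 lower tubulins also changed when single libraries were left out. Both RPF libraries lay above both total RNA libraries for 8 of the 10, against 34.9% of all genes tested. The median ratio of the 10 was 0.90, and that of all genes tested was -0.02. The ratio was also taken per coding length in RPF and per transcript length in total RNA, relative to the median of coding genes. On that scale it was -1.16 for Tuba1b, -0.99 for Tuba1a and -0.26 for Tubb2a. For the 7 that passed as higher it ran from 0.21 in Tubb6 to 1.26 in Tubb5. In these bulk samples, fewer cells of a type and less RNA per cell cannot be told apart. With library size as the only scaling the median of all genes was -0.46 and that of the tubulins 0.46.

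**Figure D3:**
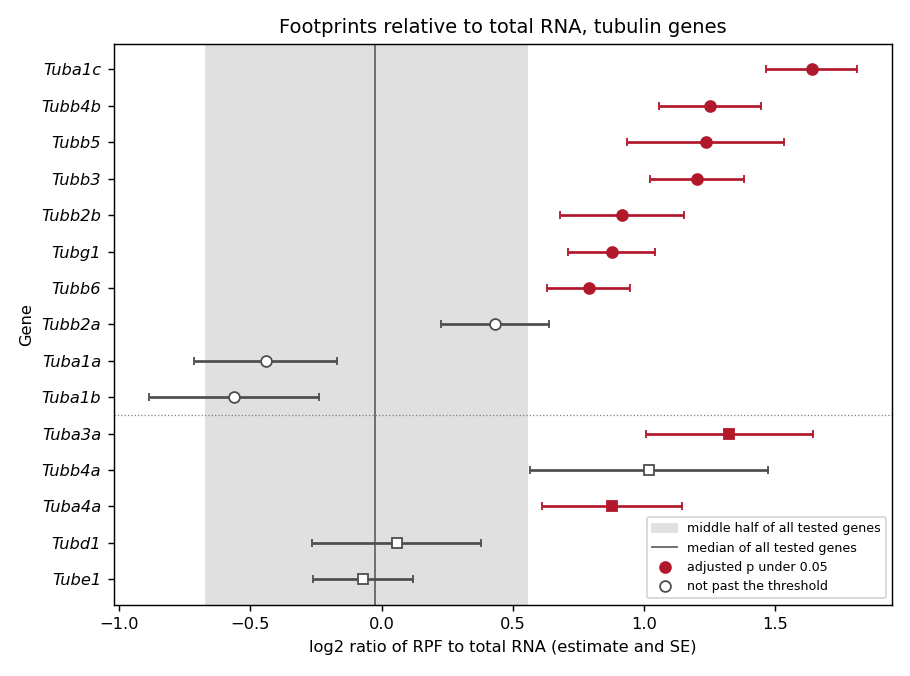
Log2 ratio of RPF to total RNA with its SE for the 10 tubulins (circles) and, below the dotted line, other tested tubulin genes (squares), filled red where the adjusted p was under 0.05; the grey band is the interquartile range of all genes tested and the line in it their median, -0.02. Tuba1c lies farthest to the right at 1.64, and Tuba1a and Tuba1b lie to the left at -0.44 and -0.56.

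Among the beta tubulins, the abundant pair was higher in RPF by similar amounts. Tubb4b, also a component of cilia, averaged 1655 ± 146 CPM in RPF and 694 ± 70.2 CPM in total RNA (SD, n = 2 each), a log2 ratio of 1.25 ± 0.20 (SE; edgeR adjusted p = 0.0032). Tubb5 averaged 2365 ± 699 CPM in RPF and 1003 ± 280 CPM in total RNA (SD, n = 2 each), a ratio of 1.24 ± 0.30 (edgeR adjusted p = 0.0156). Neither gene's RPF libraries overlapped its total RNA libraries, and the spread between replicates was wider for Tubb5. Without total RNA replicate 2 the ratio of Tubb5 was 0.98 and no longer passed (edgeR adjusted p = 0.113), and against a minimum fold of 1.5 its adjusted p was 0.0646.

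Tubb3, the neuronal beta isotype, had 176 and 142 CPM in RPF, against 77.2 and 60.9 CPM in total RNA. Its log2 ratio was 1.202 ± 0.18 (SE; edgeR adjusted p = 0.00272), the groups did not overlap, and the call held under each of the 15 alternatives. Markers of neurons ranged widely beside it. Dcx, a microtubule-binding protein of migrating neurons, had 2 and 0 counts in RPF, against 2 and 0 in total RNA, and the neuronal nuclear marker Rbfox3 had 4 and 6 counts in RPF, against 9 and 12 in total RNA. Over the whole list of 12 neuronal markers the summed level was 437 and 283 CPM in RPF and 240 and 149 CPM in total RNA, and Stmn2, a tubulin-binding stathmin, held most of it with 364 and 199 CPM in RPF and 183 and 95.0 CPM in total RNA. Next came Neurod1, a neurogenic transcription factor, with 25.2 and 36.7 CPM in RPF, against 20.9 and 22.7 CPM in total RNA, and the neurofilament gene Nefl with 19.5 and 20.99 CPM in RPF, against 11.1 and 8.15 CPM in total RNA. Of the 9 markers tested, 1, Nefl, passed as higher (edgeR adjusted p = 0.0124) and 0 as lower. Over all genes tested the shares were 20.5% higher and 21.2% lower. Neurod1 and Nefl were named after their values were seen. The part of such cells in the tubulin values was not tested.

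Tubb2a and Tubb2b, a tandem pair of beta genes known mainly from neurons, differed in level and in whether they passed. Tubb2b had 100.2 and 65.0 CPM in RPF, against 49.6 and 37.9 CPM in total RNA, a log2 ratio of 0.92 ± 0.24 (SE; edgeR adjusted p = 0.0192). Its RPF libraries were both above its total RNA libraries, although without total RNA replicate 2 the ratio was 0.74 and the adjusted p 0.0537. The call was also lost with library size as the only scaling (edgeR adjusted p = 0.108) and against a minimum fold of 1.5 (adjusted p = 0.127). Tubb2a had 19.9 and 20.99 CPM in RPF, against 14.0 and 16.3 CPM in total RNA, which also did not overlap, and its ratio of 0.43 ± 0.21 did not pass (edgeR adjusted p = 0.133). Whether the ratios of these genes differ from each other was not tested.

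Tubb6, a minor beta isotype of many tissues, had 111 and 141 CPM in RPF, against 71.6 and 74.2 CPM in total RNA. Its log2 ratio of 0.79 ± 0.16 (SE; edgeR adjusted p = 0.00783) was the smallest of the 7 that passed. Tubg1, the main gamma tubulin, had 51.3 and 44.2 CPM in RPF, against 27.3 and 24.7 CPM in total RNA. Its ratio was 0.88 ± 0.17 (edgeR adjusted p = 0.00611), and for both genes the groups did not overlap. Both calls were lost with library size as the only scaling, where the adjusted p was 0.156 for Tubb6 and 0.0709 for Tubg1, and against a minimum fold of 1.5.

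The alpha tubulins gave unlike values, although whether their ratios differ from each other was not tested. Tuba1c, expressed in many tissues, had 257 and 202 CPM in RPF, against 78.5 and 68.5 CPM in total RNA, and the groups were far apart. Its log2 ratio of 1.64 ± 0.17 (SE; edgeR adjusted p = 0.000994), a fold of 3.12, was the highest of the 10 and exceeded that of 96.9% of all genes tested. Tuba1b, a broadly expressed alpha isotype, had 211 and 126 CPM in RPF, against 318 and 180 CPM in total RNA. The groups overlapped, and the ratio of -0.56 ± 0.32 did not pass (edgeR adjusted p = 0.202). Tuba1a, which is best known from developing neurons, had 26.9 and 16.8 CPM in RPF, against 34.3 and 25.2 CPM in total RNA. Here too the groups overlapped, with a ratio of -0.44 ± 0.27 (edgeR adjusted p = 0.229).

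The calls of Tuba1a and Tuba1b turned on single libraries and on the scaling. Without RPF replicate 1, Tuba1a was lower in RPF by a ratio of -0.82 (edgeR adjusted p = 0.0175) and Tuba1b by -0.98 (edgeR adjusted p = 0.00498). Without total RNA replicate 2, Tuba1b passed at -0.91 (edgeR adjusted p = 0.0254). With library size as the only scaling both passed as lower, at -0.88 for Tuba1a and -1.003 for Tuba1b. When the ratio was corrected for the unique sequence that coding region and transcript hold, Tuba1a was at 0.08 and Tuba1b at -0.02, and neither passed, while Tuba1c was at 2.26 and still passed (edgeR adjusted p = 0.000569). For these genes most of the unique sequence lies outside the coding region, as the map of unique stretches shows: Tuba1b has 32 unique starts in its coding sequence and 229 in its transcript, Tuba1a has 79 and 525, and Tuba1c has 63 and 695.

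Counts per unique start show how densely the few countable places were read. Tuba1b had 51.1 and 27.0 counts per unique coding start in RPF, close to Tubb4b with 52.7 and 41.3, and Tuba1c had 31.5 and 22.0. In total RNA, where starts over the whole transcript were used, Tuba1b had 14.2 and 7.62 counts per start, Tubb4b had 14.7 and 12.1, and Tuba1c had 1.15 and 0.955. Taken per unique start and relative to the median of coding genes on the same scale, the ratio was 1.28 for Tuba1a and 1.27 for Tuba1b, and it was 4.10 for Tuba1c. For the largely unique genes it was 1.23 for Tubb5, 0.69 for Tubb3 and 0.20 for Tubb6. Before the median of coding genes, 1.01, was taken off, Tuba1a was at 2.29, Tuba1b at 2.28 and Tuba1c at 5.10. This scale raises genes with shared sequence in general. Also before that step, the median was 2.85 over 553 coding genes with at least 60% of coding stretches shared, against 0.95 over 10871 genes with under 10% shared. On the plain scale these sets had medians of 0.25 and -0.0041.

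Summed by class, the beta genes had 5024 and 3792 CPM in RPF, against 2158 and 1640 CPM in total RNA. The alpha genes had 495 and 345 CPM in RPF, against 431 and 274 CPM in total RNA, so their sums overlapped between the groups while those of the beta genes did not. Although alpha and beta chains enter the dimer in equal number, the counted alpha level per kb was 0.0974 and 0.0899 of the beta level in RPF, against 0.233 and 0.188 in total RNA. Per unique start, alpha over beta was 1.13 and 0.915 in RPF, against 0.754 and 0.545 in total RNA. The alpha level was thus far below the beta level per kb and of the same order per unique start.

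Within each class, the shares of the main isotypes per kb did not overlap between RPF and total RNA. Of the level per kb of the 3 alpha members, without Tuba4a, Tuba1c made up 52.0% and 58.7% in RPF, against 16.4% and 22.8% in total RNA. Tuba1b made up 42.6% and 36.5% in RPF, against 75.7% and 68.0% in total RNA, and Tuba1a held under 10% in every library. The alpha order was thus Tuba1c before Tuba1b in both RPF libraries and the reverse in both total RNA libraries. On the scale per unique start, Tuba1b led in RPF as well, with 59.9% and 53.5% in RPF, against 88.6% and 84.3% in total RNA, and Tuba1c had 37.0% and 43.6% in RPF, against 7.21% and 10.6% in total RNA.

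Among the beta genes Tubb5 made up 57.0% and 49.4% of the level per kb in RPF, against 43.9% and 37.5% in total RNA. Tubb4b made up 35.0% and 40.9% in RPF, against 45.1% and 49.8% in total RNA. The shares per kb carry the change of divisor from coding length in RPF to transcript length in total RNA. Coding sequence is 50.4% of the Tubb5 transcript and 83.7% of that of Tubb4b, whereas their log2 ratios from CPM were alike, at 1.24 and 1.25. Per unique start these shares overlapped between the groups, with Tubb4b at 69.8% and 74.8% in RPF, against 69.2% and 72.9% in total RNA. Tubb2a, Tubb2b, Tubb3 and Tubb6 each held under 6% of the beta level per kb in every library. The shares are given as descriptions over 2 libraries a group.

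The 10 genes also varied between replicates. In RPF, replicate 1 was above replicate 2 by 0.75 in Tuba1b, 0.68 in Tuba1a, 0.62 in Tubb2b and 0.61 in Tubb5 on the log2 scale. In total RNA it was above by 0.82 in Tuba1b, 0.44 in Tuba1a, 0.39 in Tubb2b and 0.58 in Tubb5. Tubb6 and Tubb2a ran the other way, with differences of -0.35 and -0.08 in RPF and of -0.05 and -0.22 in total RNA. In all, 8 of the 10 were above in replicate 1 in both fractions, against 36.9% of the 9021 genes that averaged 10 CPM or more. Tuba1b and Tubb5 exceeded 0.5 in both fractions, against 3.14% of those genes. These steps are as large as several of the ratios above.

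**Figure D4:**
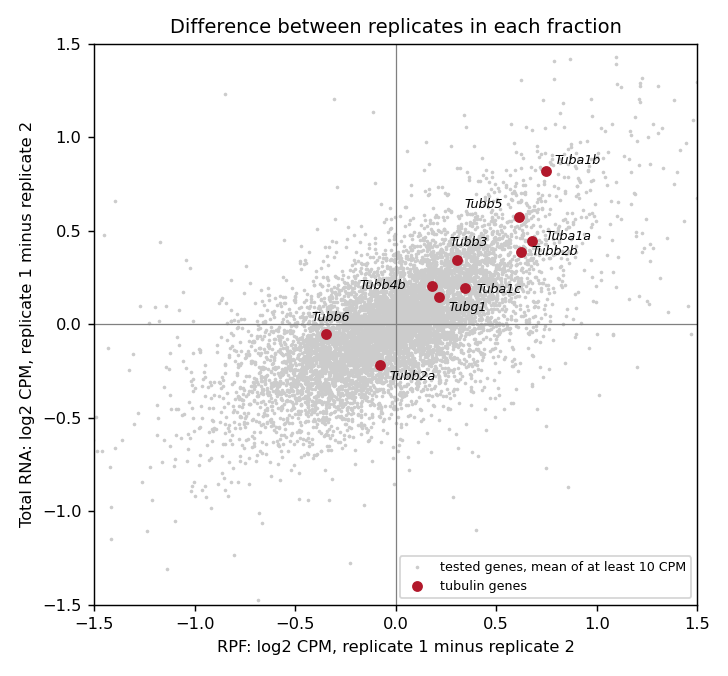
Difference between replicate 1 and replicate 2 in log2 CPM, in RPF on the x axis and in total RNA on the y axis, for the 10 tubulins in red and for genes averaging 10 CPM or more in grey; grey points beyond the axis limits are not drawn. Tuba1b lies at 0.75 and 0.82 in the upper right, and Tubb6 and Tubb2a lie below 0 in both fractions.

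Among other tubulin genes, Tuba4a averaged 94.2 CPM over the 4 libraries, above Tubb2b, Tubg1, Tuba1a and Tubb2a. The rest averaged 19.3 CPM or less. Of 10 further tubulin genes on the list, 5 passed the low-count filter, and 2 of those were higher in RPF while the other 3 did not pass, where the background of higher calls was 20.5%; their median ratio was 0.88. Tuba4a, an alpha isotype of differentiated tissues, had 140 and 104 CPM in RPF, against 83.6 and 49.1 CPM in total RNA (ratio 0.88 ± 0.27, SE; edgeR adjusted p = 0.0342). Tuba3a, known from testis, had 95 and 59 counts in RPF, against 47 and 36 in total RNA (ratio 1.33 ± 0.32; edgeR adjusted p = 0.015). Neither passed without total RNA replicate 2, at adjusted p of 0.136 for Tuba4a and 0.0725 for Tuba3a. Both were also lost with library size as the only scaling (edgeR adjusted p = 0.177 and 0.0517) and against a minimum fold of 1.5 (edgeR adjusted p = 0.186 and 0.059). Tubb4a had 21 and 18 counts in RPF, against 10 and 16 in total RNA, and did not pass (edgeR adjusted p = 0.112). The delta and epsilon tubulins of centrioles, Tubd1 and Tube1, had ratios of 0.06 ± 0.32 and -0.07 ± 0.19 and did not pass. Tubg2, the second gamma gene, had 7 and 2 counts in RPF, against 5 and 1 in total RNA, and with Tuba3b, Tuba8, Tubal3 and Tubb1 it fell below the filter.

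Genes that fold tubulin were mostly higher in RPF. All 8 subunits of the CCT chaperonin, which folds tubulin and actin, passed as higher, against 20.5% of all genes tested, with a median ratio of 1.02. With library size as the only scaling 5 of the 8 passed, with a median of 0.58, and against a minimum fold of 1.5 there were 3. The background moved as well: of all 13809 genes, 1223 were higher and 4961 lower with library size only. Against that fold, 1155 were higher and 1549 lower. Their ratios ran from Cct2 at 0.70 ± 0.20 (SE; edgeR adjusted p = 0.0268) and Tcp1 at 0.86 ± 0.21 (edgeR adjusted p = 0.0157) to Cct7 at 1.15 ± 0.20 and Cct3 at 1.16 ± 0.22 (edgeR adjusted p = 0.00425 and 0.00592). Without total RNA replicate 2, only 2 of the 8 passed, with a median of 0.84, and Cct2 was also lost without RPF replicate 1 or total RNA replicate 1 (edgeR adjusted p = 0.0768 and 0.0927). Of 13 genes of prefoldin and the tubulin cofactors, 11 were higher, 1 was lower and 1 did not pass, with a median of 0.93, where the shares over all genes were 20.5% higher and 21.2% lower. The higher calls numbered 6 with library size only, with a median of 0.49, and 5 against a minimum fold of 1.5. The prefoldin subunit Pfdn2 was at 1.73 ± 0.13 (edgeR adjusted p = 0.000489) and Arl2, the GTPase that works with cofactor D, at 1.35 ± 0.19 (edgeR adjusted p = 0.00219). Cofactor D itself, Tbcd, was at 0.46 ± 0.17 and did not pass (edgeR adjusted p = 0.0676), but it did without RPF replicate 2 at 0.62 (edgeR adjusted p = 0.0101). Tbcel, a relative of cofactor E that is known to destabilise tubulin, was the lower one at -1.58 ± 0.25 (edgeR adjusted p = 0.00345).

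**Figure D5:**
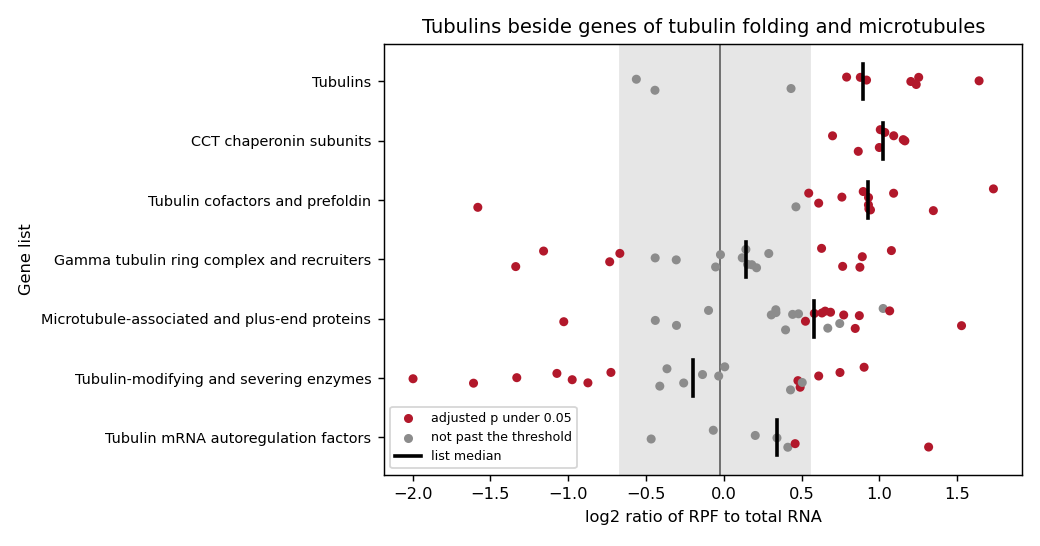
Log2 ratio of RPF to total RNA of each tested gene in the tubulin set and 6 lists of genes of tubulin folding and microtubules, red where the adjusted p was under 0.05, with a black bar at each list median; the grey band is the interquartile range of all genes tested and the line in it their median. The medians are 0.90 for the tubulins, 1.02 for the CCT subunits and 0.93 for cofactors and prefoldin, against -0.20 for the modifying and severing enzymes.

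Genes that work with finished tubulin were mixed. Of 19 genes of the gamma tubulin ring complex and its recruiters, 5 were higher, 4 were lower and 10 did not pass, with a median of 0.14. These shares lie near the 20.5% higher and 21.2% lower of all genes tested, and with library size only 1 was higher and 6 lower, with a median of -0.29. Against a minimum fold of 1.5, 1 was higher and 2 lower. All 13809 genes gave 1223 higher and 4961 lower with library size only, and 1155 higher and 1549 lower against that fold. The small ring subunits Mzt2 and Mzt1 went opposite ways, at 1.08 ± 0.19 (SE; edgeR adjusted p = 0.00522) and -1.34 ± 0.24 (edgeR adjusted p = 0.00497). Haus7, of the augmin complex, was at 0.89 ± 0.17 (edgeR adjusted p = 0.0062) and the ring subunit Tubgcp6 at -1.16 ± 0.13 (edgeR adjusted p = 0.00117). Mzt1 did not pass when the ratio was corrected for the coding share of the transcript, at -0.55 (edgeR adjusted p = 0.103). Without total RNA replicate 2, 3 of the 19 were higher and 4 lower.

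Of 23 microtubule-associated and plus-end proteins, 10 were higher, 1 was lower and 12 did not pass, with a median of 0.58, against 20.5% higher and 21.2% lower over all genes. With library size only, 3 were higher and 4 lower, with a median of 0.14, and against a minimum fold of 1.5, 2 were higher and 1 lower. For these settings the counts over all 13809 genes were 1223 higher and 4961 lower, and 1155 higher and 1549 lower. Stmn1, which sequesters free tubulin dimers, was at 1.53 ± 0.27 (SE; edgeR adjusted p = 0.00502) and Tacc3, a spindle protein, at 1.07 ± 0.15 (edgeR adjusted p = 0.00229). The minus-end binding protein Camsap1 was at -1.03 ± 0.16 (edgeR adjusted p = 0.00324), and its relative Camsap2, at -0.44 ± 0.26, did not pass (edgeR adjusted p = 0.206). The higher calls numbered 5 without total RNA replicate 1 and 3 without total RNA replicate 2, and Camsap2 passed as lower without RPF replicate 2, at -0.84 (edgeR adjusted p = 0.00239).

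Of 20 enzymes that modify or sever microtubules, 5 were higher, 7 were lower and 8 did not pass, with a median of -0.20, against 20.5% higher and 21.2% lower over all genes. With library size only, 0 were higher and 7 lower, with a median of -0.63, and against a minimum fold of 1.5, 0 were higher and 4 lower. Library size only made 1223 of all 13809 genes higher and 4961 lower, so the share of lower enzymes was near that of all genes. Against the minimum fold, 1155 of all genes were higher and 1549 lower. Ttl, which restores the terminal tyrosine of alpha tubulin, was at -1.61 ± 0.23 (SE; edgeR adjusted p = 0.00241) and Vash1, which removes it, at -1.33 ± 0.24 (edgeR adjusted p = 0.00512). The deacetylase Sirt2 was at 0.75 ± 0.21 (edgeR adjusted p = 0.029) and the glutamylase Ttll1 at 0.61 ± 0.21 (edgeR adjusted p = 0.0494). The median turned to 0.07 with the correction for the coding share and to 0.02 with that for unique sequence. The higher calls numbered 2 without RPF replicate 1, 1 without total RNA replicate 1 and 0 without total RNA replicate 2, and Ttll1 lost its call in 12 of 15 alternatives. Sirt2 lost it without RPF replicate 2 (edgeR adjusted p = 0.0626) and without either total RNA library (edgeR adjusted p = 0.167 and 0.0977 without replicates 1 and 2).

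Of 7 factors of tubulin autoregulation, 2 were higher and 5 did not pass, with a median of 0.34, and the share of higher genes over all tested was 20.5%. With library size only, 1 was higher and 2 lower and the median turned to -0.093, and against a minimum fold of 1.5, 1 was higher. Beside these stand 1223 higher and 4961 lower of all 13809 genes with library size only, and 1155 higher against that fold. Ttc5, which reads the nascent chain encoded by the capital bases shown above, had 67.9 and 67.4 CPM in RPF, against 53.0 and 45.4 CPM in total RNA (ratio 0.46 ± 0.14, SE; edgeR adjusted p = 0.0388). Its libraries did not overlap between the groups, but the call was lost in 11 of 15 alternatives. Cnot3, a subunit of the deadenylase, had 184 and 203 CPM in RPF, against 80.1 and 75.2 CPM in total RNA (ratio 1.32 ± 0.14; edgeR adjusted p = 0.00102). The scaffold subunit Cnot1, at -0.47 ± 0.20, and Cnot2, at -0.07 ± 0.14, did not pass (edgeR adjusted p = 0.0952 and 0.728). Without RPF replicate 1, Cnot1 passed as lower at -0.65 (edgeR adjusted p = 0.0386).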

How the data were processed

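RPF and total RNA libraries of eIF4A3 knockdown cells were compared from the deposited files, which hold raw read counts per gene that the authors had not normalised, per the file contents. Bowtie 1.2.3, TopHat2 2.1.1, HTSeq 0.11.2, edgeR 3.26.8 and the build mm9 are named per the submitters' processing notes, without their order. The labels' protocols give a TruSeq Ribo Profile kit with Ribo-Zero depletion and single-end 50 bp reads. Neither the joining of the 4 runs of each RPF library nor the annotation, the feature type and the strandedness used in counting is given in the sources used here. The tallies that name no gene stayed out of library sizes: reads without a feature made up 5.95% and 6.66% in RPF and 23.4% and 26.2% in total RNA, and ambiguous reads made up 4.96% and 8.58% in RPF and 0.755% and 0.719% in total RNA.

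Symbols came from GENCODE M21, which named 32621 of 37311 identifiers (87.4%). Coordinates, sequences and lengths also came from its GRCm38 transcripts, a later build than mm9, with 1 representative complete coding transcript a gene. No sequence is printed for Tubb6, and an inner stretch of the alpha genes is not reported here. A 28-base stretch counted as shared where it occurred at more than 1 genomic place among the annotated transcripts.

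Genes were filtered with filterByExpr (minimum count 10, minimum total 15) and fitted with edgeR 4.0.16 in R 4.3.3 (TMM, glmQLFit and glmQLFTest, two-sided, fraction as the only term) over all 4 libraries, with Benjamini-Hochberg adjustment over all genes tested and a threshold of 0.05. The common biological coefficient of variation was 0.172. P-values measure only the spread between these labelled replicates. Also tried were size factors from DESeq2, library size only, 2 other filters, DESeq2 1.42.0, limma-voom (limma 3.58.1), glmTreat against a fold of 1.5, a replicate block, loess corrections (span 0.5) for coding share and for unique sequence, protein-coding genes only, and each library left out. The fit was tested on simulated data.

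The members and gene lists were chosen with earlier results of these data known, so no test over a list was made. The values per unique start and the differences between replicates were added after values had been seen. Named genes were the members, other tubulins, the 2 highest and 2 lowest ratios of each list at a mean of at least 10 CPM, defining markers, Eif4a3 and the 3 protein-coding genes nearest to Tubb5.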

Additional observations from a re-analysis of the deposited data

How the results depend on the processing

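Tuba1c, Tubb3 and Tubb4b kept their direction and their side of the threshold in all 15 alternatives. With library size as the only scaling, 4 tubulins were higher and 2 lower with a median ratio of 0.46, and 1223 genes were higher and 4961 lower, against 2835 and 2930 with TMM. Against a minimum fold of 1.5, 3 tubulins passed as higher, and 1155 genes were higher and 1549 lower. The tubulin median was 0.81 with a mean of at least 10 CPM and 0.80 with the coding share correction. Leaving out 1 library gave 5 to 7 higher and 0 to 2 lower tubulins with a median of 0.81 to 1.09, and 1634 to 3123 higher and 1861 to 3310 lower genes, the lowest counts without total RNA replicate 2. Direction reversed for Tuba1a (0.079) and Tubd1 (-0.072) with the unique sequence correction, for Tubd1 with library size only (-0.37) and the coding share correction (-0.061), for Tubd1 in the leave-one-out fits (from -0.21 to 0.36) and for Cnot2 in those fits (from -0.17 to 0.032); none of these passed. Apart from the scalings themselves and the smaller numbers of libraries, the causes were not tested. Levels per kb of unique starts were higher than per kb of length for every member, as the smaller divisor implies.

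With the replicate block, 8 tubulins were higher and 2 lower with a median of 0.89, and 4257 genes were higher and 4365 lower. Tuba1a (-0.46, adjusted p = 0.0049), Tuba1b (-0.55, adjusted p = 2.43e-08) and Tubb2a (0.44, adjusted p = 0.0224) passed there and not without it (edgeR). Same-numbered libraries deviated together (r = 0.358 across 13809 genes and 0.603 across the 9021 with a mean of at least 10 CPM), but with only 2 pairs the numbers were not taken to pair the samples.

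Depth limited the rarest tubulin genes: Tubg2, Tuba8, Tubal3 and Tubb1 had at most 7 counts in any library, so their ratios were not detectable at this depth.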

Other observations

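The protein-coding genes whose log2 CPM (with 0.5 added) lay nearest to those of Tubb5 over the 4 libraries, by Euclidean distance, were Ppia at 0.366, Hnrnpu at 0.374 and Rps9 at 0.432. Ppia, a prolyl isomerase, had 2246 and 1818 CPM in RPF, against 1118 and 813 CPM in total RNA. Hnrnpu, a nuclear RNA-binding protein, had 2625 and 2276 CPM in RPF, against 1052 and 856 CPM in total RNA. Rps9, a protein of the small ribosomal subunit, had 2393 and 1759 CPM in RPF, against 1095 and 997 CPM in total RNA. The measure rests on 4 libraries and on level, and these genes were taken by distance alone.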
